A study of Homo sapiens with 10 samples.

Results

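ATP-binding cassette (ABC) transporters are membrane pumps that use ATP to move sterols, phospholipids, peptides, conjugated metabolites and drugs across membranes. The family was taken as the genes whose symbol is ABC, a subfamily letter from A to G and a number. Of 62656 genes in the expression table, 47 rows had such a symbol. ABCC13, an annotated pseudogene, and a second row named ABCF2, which was 0 in all libraries, were set aside, so that 45 genes remained. CFTR, TAP1 and TAP2 belong to the same protein family under other names and were described beside it.

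The cells were PC3, an established human epithelial line from a prostate cancer, and the measurement was RNA sequencing after 24 h with 1 µM of GW3965 or with its vehicle DMSO. GW3965 is a synthetic agonist of the liver X receptors (LXRs), and 5 libraries were made per condition. All libraries came from this single line, kept in RPMI-1640 medium with serum and glutamine. Nothing in the labels says that the libraries came from separate cultures, so the p-values below measure the spread between these libraries, which may be technical.

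LXRs are nuclear receptors that bind oxidised cholesterol and act as partners of the retinoid X receptors (RXRs) on DNA. They are known for switching on genes that remove cholesterol from cells. Among ABC transporters, ABCA1 hands cholesterol and phospholipid to lipid-poor apolipoprotein A-I, and ABCG1 passes cholesterol on to larger lipoprotein particles. Other subfamilies have other tasks: subfamily C holds most of the multidrug resistance proteins, subfamily D works mainly in peroxisomes, and subfamilies E and F are soluble proteins of the translation machinery.

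Levels are given in RPKM, reads per kilobase of gene, already scaled between libraries by the authors. The reads behind them were recovered from the steps of the values and totalled from 30432061 to 41639332 per library. Keratin genes of epithelial cells were high (KRT8 at 36.8 ± 4.35, KRT18 at 49.8 ± 5.87 and KRT19 at 140.1 ± 13.1 RPKM with DMSO; SD, n = 5), VIM of mesenchymal cells was at 65.6 ± 6.66 RPKM, and CDH1 was at 0.249 ± 0.126 RPKM. The luminal prostate gene KLK3 had no read in any library. Of 7 markers of blood, endothelial and fibroblast cells, COL1A1 (1.00 ± 0.0572 RPKM) and PECAM1 (0.639 ± 0.0333 RPKM) were the highest with DMSO, and neither passed the test between conditions. DMSO library 1 and GW3965 libraries 1 and 2 stood apart from the other 7 on the first principal component of the reads, which held 41.4% of the variance. They were at 17.7 to 19.7, and the others were spread from -21.9 in DMSO library 4 to 3.91 in DMSO library 5. The fold changes of members that moved with these 3 libraries are given with and without them.

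Of the 45 genes, 25 reached a mean of 0.5 RPKM over the 10 libraries and were tested. The test was limma on log2(RPKM + 0.1) over the 20402 genes that reached this level, with p-values adjusted over all of them and a threshold of 0.05, and fold changes below are on this scale, where the pseudocount shrinks the changes of low genes. Past the threshold, 2 of the 25 were higher with GW3965, ABCA1 and ABCG1, and none was lower. Over all tested genes 0.157% passed the threshold, 0.147% as higher and 0.0098% as lower. At an unadjusted p under 0.05, 5 of the 25 genes were called, ABCA1, ABCG1, ABCC3 and ABCC4 among them, against 6.99% of all tested genes. With limma's voom on the recovered reads, ABCA1 and ABCG1 were again the 2 that passed, against 0.309% of all genes.

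ABCA1 lies on the minus strand at chr9:104781002-104928237 (GENCODE 29, GRCh38). Its level in DMSO libraries 1 to 5 was 5.75, 2.515, 2.496, 3.19 and 3.20 RPKM. In GW3965 libraries 1 to 5 it was 19.5, 18.4, 15.4, 14.9 and 14.1 RPKM. Every treated library was above every control, and the lowest treated value was 2.45 times the highest control value. DMSO library 1, which stood apart, was the highest control, and GW3965 libraries 1 and 2 were the highest of the treated. The means were 3.43 ± 1.34 and 16.5 ± 2.37 RPKM (SD, n = 5 each), a log2 fold change of 2.29 ± 0.20 (SE; limma, adjusted p = 0.00063). Without the 3 libraries that stood apart it was 2.34 ± 0.11 (limma, adjusted p = 0.000499). From 857 to 2252 reads lay behind the control values and from 5170 to 8351 behind the treated ones.

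ABCG1 lies on the plus strand at chr21:42199689-42297244. Its level was 2.16, 1.25, 1.21, 1.75 and 1.47 RPKM in DMSO libraries 1 to 5. With GW3965 it was 8.13, 7.30, 7.16, 6.74 and 5.97 RPKM. The groups did not overlap here either, and the lowest treated value was 2.77 times the highest control value. DMSO library 1 was again the highest control, and the 5 treated libraries stood in the same order as for ABCA1. The means were 1.57 ± 0.39 and 7.06 ± 0.79 RPKM, a log2 fold change of 2.13 ± 0.15 (SE; limma, adjusted p = 0.000124). Without the 3 libraries that stood apart it was 2.15 ± 0.13 (limma, adjusted p = 0.00224). There were from 225 to 456 reads behind the control values and from 1185 to 1787 behind the treated ones.

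**Figure D1:**
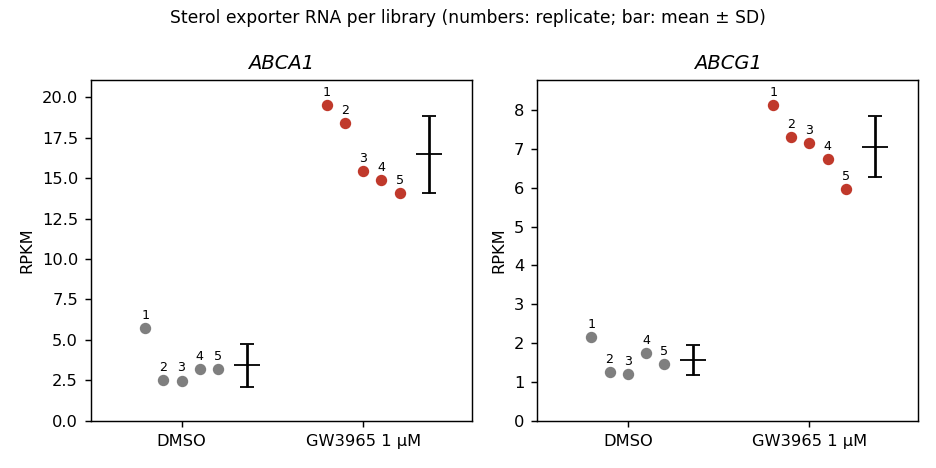
RNA level of ABCA1 (left) and ABCG1 (right) in RPKM, with 1 point per library, numbered by replicate, and the mean ± SD of 5 libraries beside the points. ABCA1 went from 2.496 to 5.75 RPKM with DMSO to between 14.1 and 19.5 RPKM with GW3965, and ABCG1 from 1.21 to 2.16 to between 5.97 and 8.13 RPKM.

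Ordered by log2 fold change, ABCA1 was 4th and ABCG1 5th of all 20402 tested genes. The level of ABCA1 was 1.83 to 2.67 times that of ABCG1 in the DMSO libraries and 2.16 to 2.52 times in the GW3965 libraries, with means of 2.15 ± 0.32 and 2.33 ± 0.15, so these ranges overlapped. By level, ABCA1 moved from 15th to 2nd and ABCG1 from 22nd to 11th of the 45 genes. Non-overlapping groups were seen for these 2 of the 25 tested genes, both higher with GW3965, against 1.84% of all tested genes, 1.35% as higher and 0.49% as lower.

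The reference DNA just before the ABCA1 start was searched because LXR and RXR are known to bind paired copies of a hexamer, AGGTCA, with 4 bases between the copies. Promoters of 300 bases (RefSeq, GRCh38.p14) were searched on both strands, with up to 2 mismatches over the 12 fixed letters allowed. A match was found in 2.34% of 35116 promoters of all genes, and in 4 of the 53 promoters (7.55%) listed for 35 ABC genes. ABCG1 was not among these 35 and was not searched. The matches belonged to ABCA1, ABCD2 and ABCC6, the last with the same site in overlapping promoters. The sites are shown to compare a gene that rose with others that hold a match, in the direction of the repeat, with the hexamers in capitals, and the strand given is that of the repeat.
ABCA1, chr9:104928202-104928231, plus strand: agcgcagAGGTTActatCGGTCAaagcctg
ABCD2, chr12:39619990-39620019, plus strand: tttggagAGGTCGaatcAGGCCAtctgctg
ABCC6, chr16:16223611-16223640, plus strand: gggagtgAGGCCAcgggAGGTGAaaacagg

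Counted from 1 at the first base of the repeat, with the searched letter first, the ABCA1 site differed by C5T and A11C. It lay from 69 to 54 bases before the RefSeq start, on the strand opposite to the gene, in a stretch that GENCODE 29 also annotates as 5′ UTR of a longer transcript. The ABCD2 site differed by A6G and T14C and the ABCC6 site by T4C and C15G, and neither lay in an exon of its gene. ABCD2, a peroxisomal fatty acid transporter, had at most 2 reads in any library. ABCC6, a liver and kidney protein whose loss causes ectopic calcification, was at 0.0813 ± 0.0205 RPKM with DMSO and 0.0738 ± 0.0352 RPKM with GW3965, and its groups overlapped. From 9 to 35 reads lay behind these values. Of the windows of 50 exon bases of ABCC6, 18.1% also occur in other genes, mostly in the pseudogene ABCC6P1, so its level is uncertain. A match of letters is a description and no measurement of binding.

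Subfamily G holds 3 further sterol exporters, and none reached the level for the test. ABCG5 and ABCG8 together pump plant sterols and cholesterol out of liver and gut cells, and ABCG4 is a close relative of ABCG1 known from the brain. ABCG5 was at 0.0419 ± 0.0172 RPKM with DMSO and 0.0271 ± 0.0156 with GW3965, from 1 to 9 reads. ABCG8 was at 0.0654 ± 0.00865 and 0.0607 ± 0.0136 RPKM. ABCG4 was at 0.129 ± 0.0354 and 0.141 ± 0.0300 RPKM. The groups overlapped for each of these genes, and at this depth no difference was detectable.

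Apart from ABCA1 and ABCG1, 23 family members were tested, with a positive log2 fold change for 10 and a negative one for 13. Their median was -0.03. Over all tested genes the median was 0.0034. The typical size of a change, without its sign, was 0.07 among the 23 against a median of 0.09 over all tested genes. The values ran from -0.26 for ABCA4 to 0.33 for ABCC3, and the lowest adjusted p of the 23 was 0.578 (limma). For 18 of the 23, the 95% interval of the log2 fold change lay within 0.5 of zero on either side. The highest upper bound among the 23 was 0.68, for ABCA13, and the lower bounds of ABCA1 and ABCG1 were 1.84 and 1.80.

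**Figure D2:**
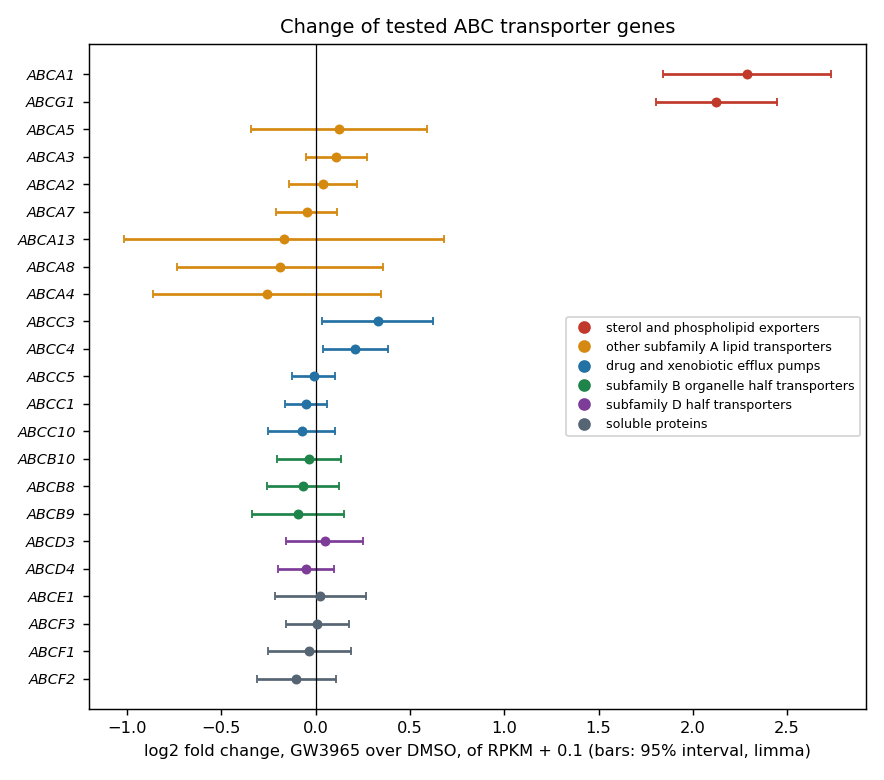
Log2 fold change of GW3965 over DMSO, of RPKM + 0.1, for 23 of the 25 tested genes, coloured by role, with 95% intervals from limma. ABCA1 at 2.29 and ABCG1 at 2.13 lie apart from the other 21, which range from -0.26 to 0.33.

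Subfamily A had 11 members beside ABCA1, and 7 of them were tested. None passed the threshold and 3 had a positive log2 fold change. ABCA3, which loads surfactant phospholipid into lamellar bodies of the lung, was the highest of them, at 10.0 ± 0.86 RPKM with DMSO and 10.8 ± 0.75 with GW3965. ABCA2, an endosomal and lysosomal lipid transporter abundant in brain, was at 5.33 ± 0.34 and 5.50 ± 0.62 RPKM. ABCA7, a close relative of ABCA1 and a risk gene of Alzheimer's disease, was at 1.85 ± 0.10 RPKM with DMSO and at 1.79 ± 0.12 with GW3965, a log2 fold change of -0.05 ± 0.07 (limma, adjusted p = 0.956). The 95% interval of this log2 fold change ran from -0.21 to 0.12.

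ABCA13, the longest protein of the family, varied widely between libraries. Its level was 5.34, 1.65, 1.86, 2.19 and 3.52 RPKM in the DMSO libraries and 3.66, 3.76, 2.36, 2.11 and 1.00 RPKM in the GW3965 libraries. The groups overlapped over nearly their whole range, and the coefficient of variation was 52.9% with DMSO and 44.7% with GW3965. Its log2 fold change of -0.17 ± 0.39 had an interval from -1.02 to 0.68, and it became positive without DMSO library 1 (0.08) or without GW3965 library 5 (0.12). Without the 3 libraries that stood apart it was -0.35 ± 0.33 (limma, adjusted p = 0.805). ABCA4, the retinoid transporter of photoreceptors, was near the limit for testing, at 0.595 ± 0.195 and 0.488 ± 0.178 RPKM, a log2 fold change of -0.26, and of -0.39 without the 3 libraries.

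A run of neighbouring subfamily A genes lies on the minus strand of chromosome 17 in the order ABCA8, ABCA9, ABCA6, ABCA10 and ABCA5. ABCA5 was at 1.96 ± 0.52 RPKM with DMSO and 2.13 ± 0.53 with GW3965. ABCA8 was at 0.564 ± 0.152 and 0.488 ± 0.159 RPKM, a log2 fold change of -0.19, and of -0.35 without the 3 libraries. ABCA10, at 0.460 ± 0.152 and 0.463 ± 0.182 RPKM, had the highest mean of all members that were not tested. ABCA6 and ABCA9 were below 0.1 RPKM in every library. ABCA5 and ABCA10 share 318 exon bases on the same strand, so reads there cannot be assigned to either gene with certainty. The skin lipid transporter ABCA12 was at 0.0342 ± 0.0133 and 0.0349 ± 0.0168 RPKM.

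The drug and xenobiotic pumps counted 12 genes, of which 5 were tested and none passed the threshold. Subfamily C supplied all of those tested. ABCC3, which exports glucuronide conjugates and bile acids, had the highest mean level of the whole family. Its values were 18.7, 13.2, 13.8, 14.98 and 14.5 RPKM with DMSO and 23.0, 23.0, 17.1, 16.01 and 15.9 RPKM with GW3965. DMSO library 1 lay above GW3965 libraries 3 to 5, so the groups overlapped, and all treated libraries lay above the DMSO median. The log2 fold change was 0.33 ± 0.13 (limma, unadjusted p = 0.032, adjusted p = 0.631). It was 0.21 ± 0.06 without the 3 libraries that stood apart (limma, adjusted p = 0.33).

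ABCC4, a pump for cyclic nucleotides and prostaglandins, had the next largest value among the 23. It was at 8.20, 6.82, 6.50, 7.26 and 6.99 RPKM with DMSO and at 9.31, 8.76, 8.07, 7.67 and 7.66 RPKM with GW3965. Again DMSO library 1 was the only control inside the treated range, and again all treated libraries lay above the DMSO median. The log2 fold change was 0.21 ± 0.08 (limma, adjusted p = 0.578), and 0.18 ± 0.06 without the 3 libraries that stood apart (limma, adjusted p = 0.400). ABCC1, the first multidrug resistance protein described in this subfamily, was at 8.41 ± 0.41 and 8.13 ± 0.18 RPKM. ABCC5, a relative that carries nucleotide analogues, was at 5.46 ± 0.15 and 5.42 ± 0.23 RPKM, and its log2 95% interval ran from -0.12 to 0.10. ABCC10 was at 3.32 ± 0.31 and 3.15 ± 0.26 RPKM.

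Among the well known drug pumps, ABCB1 and ABCG2 were almost silent in these libraries. ABCB1, which encodes P-glycoprotein, had 1, 0, 3, 0 and 0 reads with DMSO and 4, 1, 7, 1 and 2 reads with GW3965. These few reads overlapped between groups (two-sided exact permutation test on RPKM, p = 0.167, adjusted p = 0.971). ABCG2, the breast cancer resistance protein, had from 0 to 4 reads per library. ABCC2, a canalicular pump of liver cells, was at 0.0951 ± 0.0202 and 0.103 ± 0.0230 RPKM. ABCB5 and ABCC11 had at most 16 reads in any library, and ABCC12 at most 2.

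Subfamily D, whose proteins work as dimers, had 4 members and 3 of them were tested, none of which passed the threshold. ABCD3, a peroxisomal transporter, was at 5.11 ± 0.68 and 5.26 ± 0.30 RPKM, and ABCD4, which takes part in the release of vitamin B12 from lysosomes, was at 2.68 ± 0.09 and 2.58 ± 0.20 RPKM.

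Of 5 subfamily B genes of mitochondria and lysosomes, 4 were tested and none passed the threshold. ABCB10, an inner membrane protein linked to haem synthesis, was at 7.35 ± 0.53 RPKM with DMSO and 7.18 ± 0.68 with GW3965. ABCB8 was at 2.73 ± 0.28 and 2.60 ± 0.20 RPKM. ABCB9, a lysosomal peptide transporter, was at 0.921 ± 0.0507 and 0.860 ± 0.0930 RPKM. It shares 2752 exon bases with AC026362.1, 1656 with OGFOD2 and 1590 with ARL6IP4, all on the opposite strand. Since the strand setting of the counting is not given, the level of ABCB9 is uncertain. ABCB6 was at 0.360 ± 0.134 and 0.378 ± 0.0460 RPKM and is uncertain, because 48.8% of its windows of 50 exon bases also occur in other genes, mostly in an overlapping gene model.

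All 4 soluble proteins were tested and none passed the threshold. ABCF1, a partner of a translation initiation factor, was the highest of the family with DMSO, at 15.5 ± 1.71 RPKM, and stood at 15.2 ± 1.87 RPKM with GW3965. ABCE1, which splits ribosomes after translation, was at 13.6 ± 1.74 and 13.8 ± 1.81 RPKM. ABCF3 was at 9.80 ± 0.67 and 9.88 ± 0.94 RPKM. ABCF2 was at 3.79 ± 0.35 and 3.53 ± 0.44 RPKM. Its level is uncertain, because 45.1% of its windows of 50 bases are shared, chiefly with the second row of that name. That row was 0 in all libraries and shares 1914 exon bases with ABCF2 on the same strand. The 4 log2 fold changes of the soluble proteins ran from -0.10 to 0.02.

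The remaining genes had few reads. ABCB4, a phosphatidylcholine pump of bile, was at 0.137 ± 0.0297 and 0.144 ± 0.0238 RPKM, and the bile salt pump ABCB11 was at 0.0237 ± 0.0117 and 0.0237 ± 0.0189 RPKM. ABCC8 and ABCC9, sulfonylurea receptors that regulate potassium channels, had at most 46 reads in any library. Over the 20 members below the level for testing, 18 had more than 3 reads in some library and were compared by the two-sided exact permutation test on RPKM. None of the 18 had a p under 0.05, and the lowest was 0.159 for ABCB5 (adjusted p = 0.971), where the smallest p that 5 against 5 libraries can give is 0.00794.

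**Figure D3:**
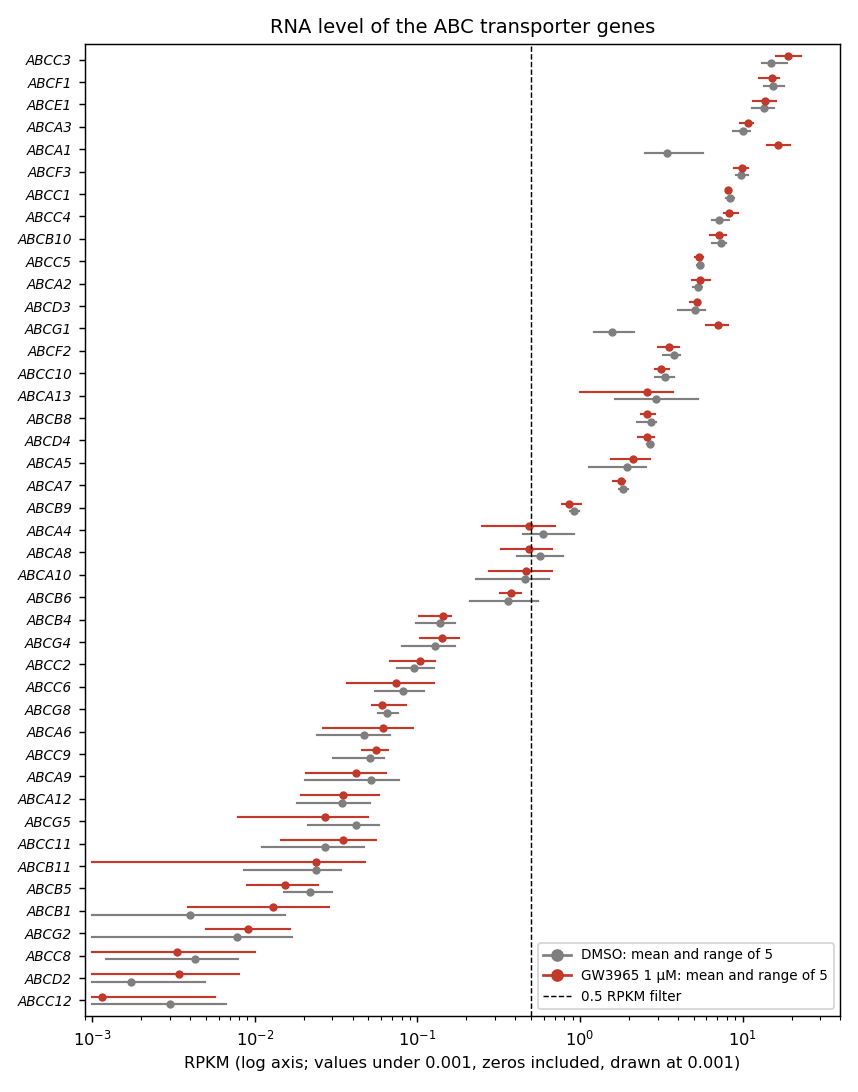
RNA level of 43 of the 45 ABC genes in RPKM on a log axis, ordered by the mean over 10 libraries, with the mean (point) and range (line) of 5 DMSO and of 5 GW3965 libraries and a dashed line at the 0.5 RPKM needed for testing. ABCA1 and ABCG1 are the genes whose lines do not overlap among the 23 tested genes shown. For 20 genes the mean over the 10 libraries lies left of the dashed line, though the ranges of ABCA10 and ABCB6 cross it.

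Summed over the 45 genes, the family stood at 148.7 ± 5.04 RPKM with DMSO and 173.5 ± 5.59 with GW3965, a difference of 24.7 RPKM. Of this, ABCA1 gave 13.0 RPKM and ABCG1 gave 5.49 RPKM. ABCC3 was the next largest contributor with 3.997 RPKM, a difference that did not pass the test for the gene itself. ABCA1 and ABCG1 together made up 2.53 to 5.12% of the family sum with DMSO and 12.0 to 15.4% with GW3965. Without them, the sum of the other 43 genes was 137.4 to 146.4 RPKM with DMSO and 146.6 to 152.6 RPKM with GW3965. These ranges lay close together but did not overlap. Without ABCC3 as well, picked for its difference in these data, the sum was 124.2 to 131.6 RPKM and 129.3 to 132.6 RPKM, ranges that overlapped. These sums are descriptions of chosen genes and were not tested. In bulk RNA, more cells with a transcript and more of it per cell cannot be told apart.

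**Figure D4:**
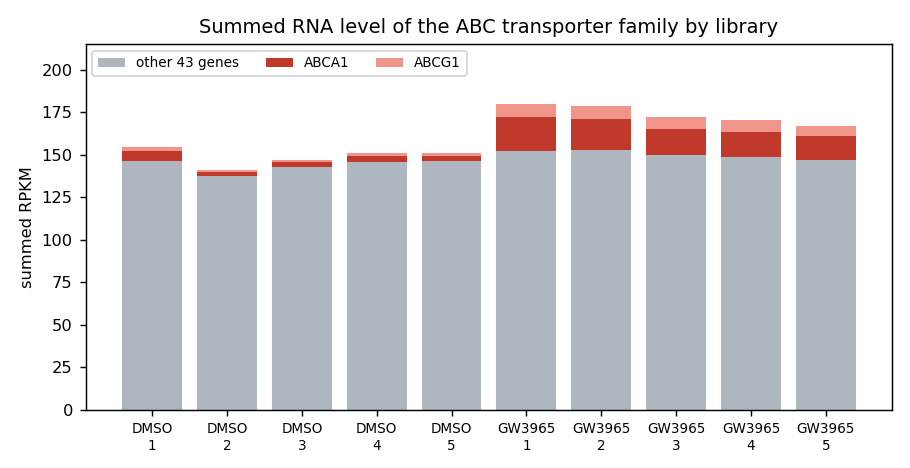
Summed RPKM of the 45 ABC genes in each library, split into ABCA1, ABCG1 and the other 43 genes. The coloured parts take 2.53 to 5.12% of the bar in the DMSO libraries and 12.0 to 15.4% in the GW3965 libraries, and the grey part lies between 137.4 and 152.6 RPKM in all.

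Several members were high together in the libraries that stood apart. In DMSO library 1 and GW3965 libraries 1 and 2, 7 of the 25 tested genes were above all of the other 7 libraries, against 5.97% of all tested genes. These were ABCA2, ABCA4, ABCA5, ABCA8, ABCA13, ABCC3 and ABCC4. ABCA5, for example, was at 2.55 to 2.71 RPKM in these 3 libraries and at 1.14 (DMSO library 4) to 2.16 RPKM in the others. Below all others were 3 of the 25, ABCB10, ABCF1 and ABCF3, a share near the 11.8% of all tested genes. ABCB10 was at 6.28 to 6.73 RPKM in the 3 libraries and at 7.31 to 7.96 RPKM in the others. Without the 3 libraries, the log2 fold change moved from 0.04 to -0.05 for ABCA2, from 0.13 to -0.01 for ABCA5, from -0.03 to 0.01 for ABCB10, from -0.03 to 0.05 for ABCF1 and from 0.01 to 0.08 for ABCF3, and none of these genes passed the threshold either way. The 3 libraries come from both conditions, and what they share was not tested. The share of 7SL RNA reads, between 12.0 and 23.2% over all libraries, was 21.4, 12.0 and 14.5% in them.

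**Figure D5:**
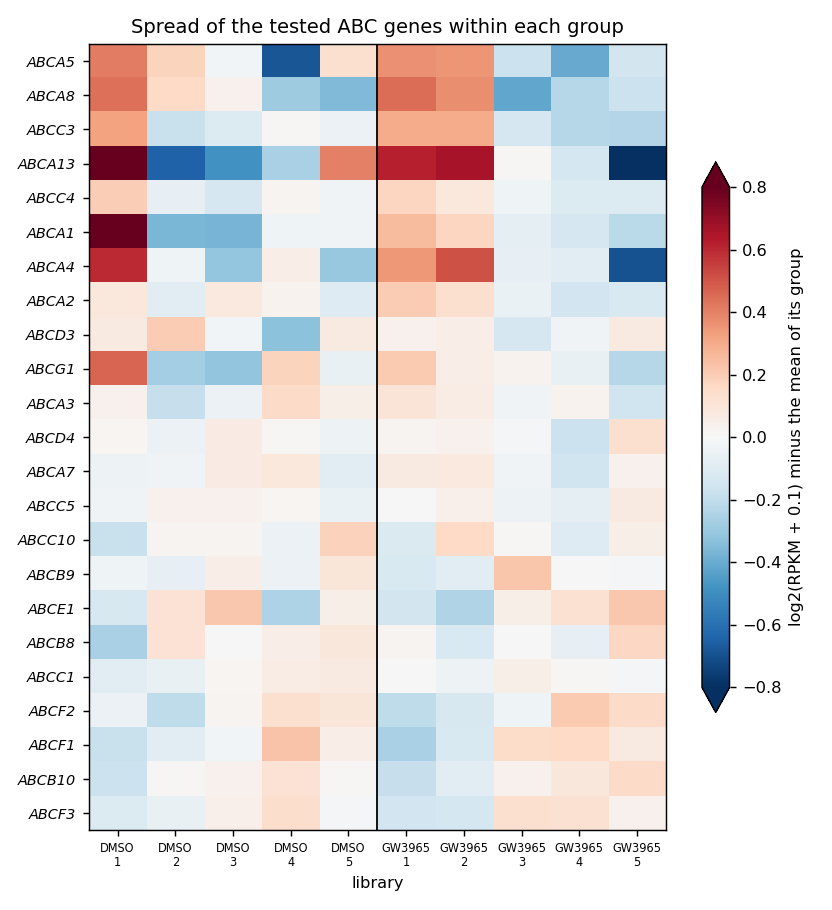
Log2(RPKM + 0.1) of 23 of the 25 tested ABC genes in each library minus the mean of its own condition, with the colour scale ending at 0.8 on either side. Genes at the top, such as ABCA5, are above their mean (red) in DMSO library 1 and GW3965 libraries 1 and 2, and genes at the bottom, such as ABCF3, are below it (blue).

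The family genes under other symbols are the peptide transporter subunits of antigen presentation, TAP1 and TAP2, and the chloride channel CFTR. TAP1 was at 4.99 ± 0.43 RPKM with DMSO and 5.19 ± 0.29 with GW3965, and TAP2 at 2.00 ± 0.18 and 1.88 ± 0.22 RPKM, and neither passed the threshold. CFTR had from 2 to 11 reads.

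Beside the transporters, a list of 29 genes of cholesterol efflux and LXR action was examined, ABCA1, ABCG1, ABCG5 and ABCG8 included. Of the 21 that were tested, 5 were higher with GW3965, against 0.147% of all tested genes, and none was lower. For 15 the log2 fold change was positive, against 51.1% of all tested genes (median over the 21, 0.09). This list was written with earlier results of these libraries known and is no independent evidence of a direction. The receptors themselves, NR1H2 (LXRβ) and NR1H3 (LXRα), were at 15.8 ± 1.05 and 1.80 ± 0.18 RPKM with DMSO and at 15.6 ± 0.80 and 1.78 ± 0.09 RPKM with GW3965. Beside the transporters, those that passed included SREBF1, a master regulator of lipid synthesis (0.74 ± 0.08, adjusted p = 0.00362), and MYLIP, a ubiquitin ligase that marks lipoprotein receptors for degradation (0.74 ± 0.09, adjusted p = 0.00714; log2 fold changes and p from limma). Without the 3 libraries that stood apart, 2 of the 21 passed, ABCA1 and ABCG1, against 0.0882% of all tested genes. SREBF1 was then at 0.71 ± 0.11 (adjusted p = 0.0907) and MYLIP at 0.68 ± 0.11 (adjusted p = 0.101; log2 fold changes and p from limma), with 4 DMSO and 3 GW3965 libraries left. The log2 fold changes of ABCA1 and ABCG1 were the largest of the list.

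Another class of lipid pumps was set beside the ABC transporters, the P4-ATPases, which move phospholipids toward the cytosolic side of a membrane, with their TMEM30 subunits. Of 16 such genes 10 were tested, and none passed the threshold in either direction. Their median log2 fold change was 0.08, 9 of the 10 values were positive, against 51.1% of all tested genes, and the lowest adjusted p was 0.616, for ATP8B1 (limma, log2 fold change 0.29 ± 0.11).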

How the data were processed

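The authors sequenced ribosome-depleted total RNA (the labels say polyA RNA) with a stranded kit as single reads. The submitters' processing notes name hg38, HISAT2 2.1.0, HTSeq 0.11.2 and DESeq2 1.22.2, while the paper's methods name a mouse genome. All identifiers are human, and the strand setting of the counting is not given in the sources used here. The deposited RPKM values, 1 column per library, were whole multiples of a step per gene in 100% of values above 0 (tolerance 0.001), which gave the reads. The authors' library factors equalled median-of-ratios size factors.

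Libraries were grouped by their titles. limma 3.58.1 in R 4.3.3 was fitted to log2(RPKM + 0.1) over the 20402 genes averaging 0.5 RPKM or more (lmFit, eBayes with a trend), two-sided, with Benjamini-Hochberg adjustment. limma's voom on the recovered reads was an alternative and called 63 genes. No count test was the main result, since the unit is RPKM. Members below the filter were compared by exact permutation over all 252 splits. The fit was tested on simulated data. Values in sentences of the form a ± b are mean ± SD, n = 5 per condition, or log2 fold change ± SE. Named with values were all members with a mean of at least 0.5 RPKM, and the others by their level. Results of 2 members and of some genes of the other lists are not reported here by name. Members and lists were chosen with earlier results of these data known. Uniqueness was taken from GENCODE 29 transcripts. A further 16 rows with ABC symbols of pseudogenes or antisense genes were left out. The 3 alternatives named as added in the closing part were chosen after the data were seen.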

Additional observations from a re-analysis of the deposited data

How the results depend on the processing

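The fit was repeated under 23 alternatives, of which 20 were planned and 3 were added after the data were seen (the first component of the reads as a covariate, the 7SL share as a covariate, and leaving out the 3 libraries that stood apart). ABCA1 and ABCG1 passed the threshold in all 23, with log2 fold changes of 2.01 to 2.49 and 1.66 to 2.24 and adjusted p (limma) from 5.45e-06 to 0.00542 and from 6.39e-07 to 0.00467. No other ABC gene passed in any of them, and no scaling moved the median of all genes by more than 0.015. Of 480 values of 21 other tested genes, 452 kept their sign and 28 changed it, all without a call. Without the 3 libraries that stood apart, the log2 fold change was -0.047 for ABCA2, -0.013 for ABCA5, 0.014 for ABCB10 and 0.047 for ABCF1. With library weights it was -0.045 for ABCA5, -0.032 for ABCD3 and 0.044 for ABCF1. Without DMSO library 4 it was -0.046 for ABCA5. With quantile normalization it was -0.0015 for ABCE1 and -0.012 for ABCF3, and with the 7SL share as a covariate 0.021 for ABCF1. When each library was left out in turn, values ran from -0.33 to 0.12 for ABCA13, from -0.0095 to 0.079 for ABCA2, from -0.046 to 0.23 for ABCA5, from -0.077 to 0.012 for ABCB10, from -0.029 to 0.0088 for ABCC5, from -0.034 to 0.098 for ABCD3, from -0.038 to 0.084 for ABCE1, from -0.079 to 0.030 for ABCF1 and from -0.024 to 0.047 for ABCF3. The cause was not tested.

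The efflux list had 5 genes past the threshold, and 2 with the replicate block or without the 3 libraries that stood apart. It had 4 or 5 when single libraries were left out. Of all genes, 30 were higher and 2 lower in the fit as reported. The count of higher genes was 14 with the replicate block, 19 without a trend, 54 with library weights, 59 with voom on the recovered reads, 128 with the first component as a covariate and 18 without the 3 libraries, and from 17 to 37 when single libraries were left out, lowest without GW3965 library 2 or 4. The count of lower genes was 1 without a filter, 6 with quantile normalization, 1 without a trend, 4 with voom, 18 with the first component, 0 with the 7SL share and 0 without the 3 libraries, and from 0 to 2 when single libraries were left out. The cause was not tested.

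Whether equal replicate numbers pair the libraries could not be told. The correlation of their deviations from the group means was 0.149, -0.049, 0.039, 0.160 and -0.138 for numbers 1 to 5. Of the 5 GW3965 libraries, 2 correlated best with the DMSO library of their own number. These values were too few and too weak to settle the question. With the replicate number as a block, 16 genes passed instead of 32, and ABCA1 and ABCG1 remained the 2 ABC genes past the threshold. Depth limited what could be seen for the 20 members below 0.5 RPKM, whose reads per library ran from at most 2 for ABCC12 and ABCD2 to 73 or more for ABCA10.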
